A study of Homo sapiens with 6 samples.

Results

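Shared accessible sites that became at least 2 times as wide after HMGA1 silencing were described in DAMI cells, a human leukaemia line labelled MPN/AML (myeloproliferative neoplasm or acute myeloid leukaemia). The assay was ATAC-seq, whose transposase, Tn5, cuts and tags DNA that it can reach. The labels give 3 samples per group, and both groups carry a lentivirus: a control virus in one and a short hairpin RNA against HMGA1 (shHMGA1) in the other. The hairpin sequence and the degree of silencing were not analysed here, and 1 line limits both groups as a model. The deposited data hold 1 peak list per group on hg19, with 127153 control and 112610 shHMGA1 peaks and no value per sample. There is therefore no replicate check on any difference below, no p-value is given, and intervals cover counting error only. Read depth is unknown, because the lists hold no read counts.

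HMGA1 is an architectural chromatin protein whose AT-hooks bind the minor groove of AT-rich DNA, where it bends DNA and competes with linker histone H1. An ATAC-seq peak marks a stretch that Tn5 can reach, usually a nucleosome-poor promoter or enhancer. Its edges fall where the signal sinks below the caller's threshold, often near the flanking nucleosomes. A peak can thus grow on one flank or on both without its summit, the base of highest significance, being moved.

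The sites were chosen from pairs on chromosomes 1 to 22 in which 1 control peak and 1 shHMGA1 peak overlapped each other by at least 1 bp and overlapped no other peak. Of 82202 such pairs, 47152 had an shHMGA1 peak of 500 bp or more and are called eligible. In 2112 of these, 4.48% of the eligible pairs (95% Wilson interval 4.30 to 4.67), the shHMGA1 peak was at least 2 times as wide as the control peak. These are the widened sites. The share depends on which peaks are paired: with 56305 of the most significant peaks taken from each list there were 848 widened sites (2.58%), and with peaks at or above the joined median significance 926 (2.74%). Since widths in both lists chose them, their widths and every measure tied to width are given as descriptions. A further 913 pairs met the ratio with an shHMGA1 peak under 500 bp. Width ratios formed no gap at the threshold. There were 317 sites with a ratio below 2.1 and 356 eligible pairs between 1.9 and 2. The closest to the threshold from inside were 7 sites with a ratio of exactly 2, such as a site at 11q13.5 (339 bp in control, 678 bp in shHMGA1). The closest from outside was a pair at 1p22.1 with 603 and 1205 bp, a ratio of 1.998. At the width limit, 3 widened sites were 500 bp wide in shHMGA1 (at 13q12.12, 4q25 and 6p21.32), and 5 pairs with a ratio of 2 or more were left out because they were 1 bp narrower.

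Most widened sites were narrow, weak peaks in control, while the rule asks for 500 bp or more in shHMGA1. Their median width was 293 bp in control (quartiles 220 and 373) and 736 bp in shHMGA1 (598 and 931). The median ratio was 2.48, and the largest 8.34. Ratios from 2 to 2.5 made up 51.3% of the sites, ratios from 2.5 to 3 another 24.6%, and 37 sites reached 5 or more. Together the sites covered 679 kb in control and 1743 kb in shHMGA1. They gained 1086 kb, and 476 of them (22.5%) also gave up bases at an edge, 21.8 kb in all. In the other 1636 sites (77.5%) the control peak lay wholly inside the shHMGA1 peak. For comparison, all eligible pairs were weighted to the shHMGA1 widths of the widened sites in 50-bp classes. At these equal widths the median control width was 746 bp, the median ratio 1.01 and the median gain 43 bp, against 449 bp in the widened sites.

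**Figure D1:**
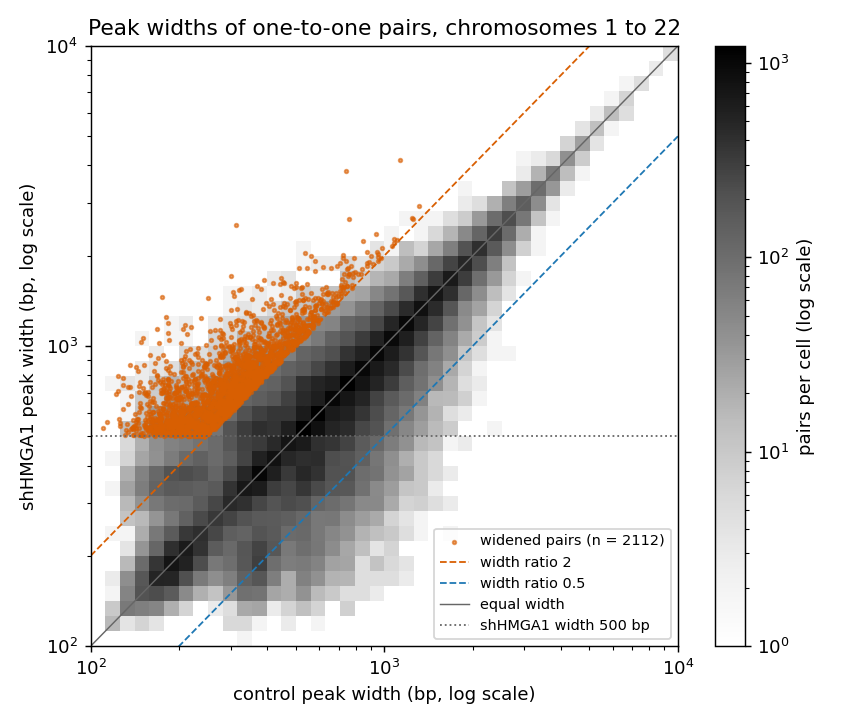
Width of the control peak (x axis, bp, log scale) against width of the shHMGA1 peak (y axis, bp, log scale) for the one-to-one pairs on chromosomes 1 to 22, with the number of pairs per cell in grey and the 2112 widened sites in orange. Widened sites lie on or above the dashed orange line of ratio 2 and the dotted line of 500 bp, with a median control width of 293 bp, while most pairs lie along the line of equal width.

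Widening was outnumbered by narrowing. With the lists exchanged, 49203 pairs had a control peak of 500 bp or more, and in 3329 of them (6.77%, interval 6.55 to 6.99) that peak was at least 2 times as wide as its shHMGA1 partner. Widened sites were thus 38.8% of the 5441 sites that changed width by this rule (interval 37.5 to 40.1). When each list was cut to its strongest 56305 peaks, the value was 36.7%. The narrowed sites mirrored the widened ones in shape, with median widths of 307 and 773 bp and a median ratio of 2.51. Among pairs with an shHMGA1 peak under 750 bp 5.81% were widened, and among those of 1500 bp and over 1.35%. The shares narrowed in the same classes of control width were 8.04% and 2.41%.

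Gained bases lay on one flank in 1048 sites and on both in 1064. One flank here means that at least 90% of the gained bases lay on one side of the control peak, which held for 49.6% of the sites (interval 47.5 to 51.8). The side was nearly balanced, with 547 sites gaining towards lower and 501 towards higher coordinates. In 525 sites every gained base was on one side, and in 351 the larger flank held less than 60% of the gain. Sites with one flank gained a median of 418 bp there, and sites with both gained 326.5 and 160 bp. Of the narrowed sites, 47.0% changed on one flank (interval 45.3 to 48.7), which overlaps the interval of the widened sites. Eligible pairs of equal shHMGA1 width that gained any base did so on one flank in 77.4%, although most of those gains were short. Among 5499 eligible pairs that were not widened but gained at least 257 bp, the smallest gain of a widened site, the share was 64.8% (interval 63.5 to 66.0). Gains on both flanks thus made up a larger share of the widened sites than of other pairs with a long gain. That comparison group was chosen after the data were seen, and it had wider control peaks (median 733 bp) and shorter gains (median 350 bp).

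Measured from the shHMGA1 summit, the gained bases lay less often on one side. In 865 sites (41.0%, interval 38.9 to 43.1) at least 90% of the gain was on one side of that summit. With the larger flank turned to the right, 200 bp to the right of the summit lay in the control peak in 20.3% of sites and in gained sequence in 74.2%. At 200 bp to the left, 33.0% lay in the control peak and 35.6% in gained sequence. At 400 bp to the right, 67.9% of sites still held gained sequence, and at 600 bp 26.2%.

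**Figure D2:**
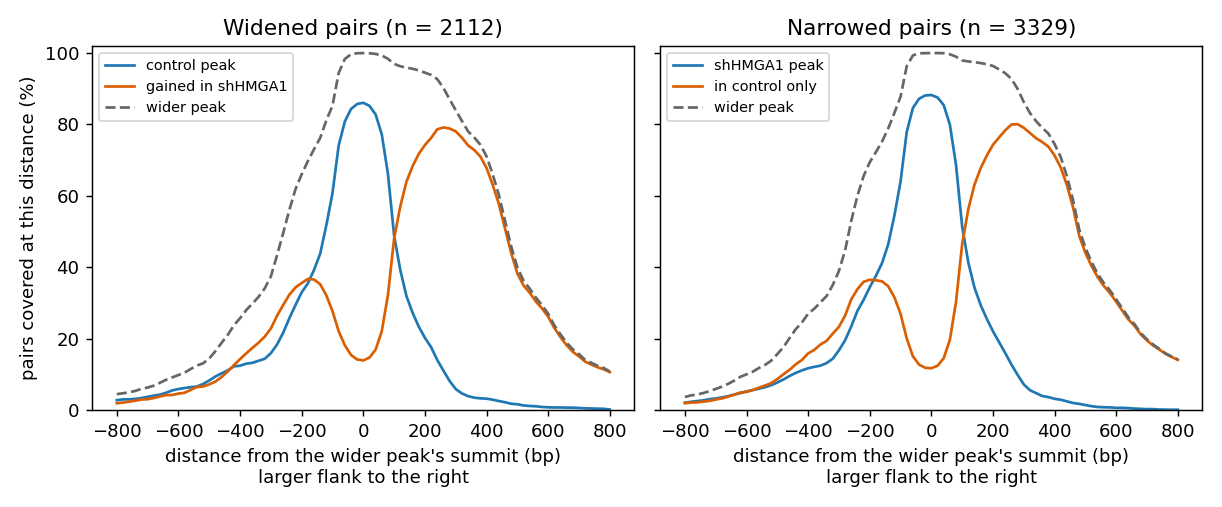
Share of sites (y axis, percent) in which a base at a given distance from the summit of the wider peak (x axis, bp, larger flank to the right) lay in the narrower peak, in the wider peak only, or in the wider peak at all, for 2112 widened and 3329 narrowed sites. Gained sequence reached 74.2% of widened sites at 200 bp to the right and 35.6% at 200 bp to the left, and the curves of the narrowed sites had nearly the same form.

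The lengths of the gained flanks were unevenly distributed. In 25-bp classes, sites with one flank were most frequent at 350 to 374 bp (126 of 1048). In sites with both flanks, the smaller flank was most frequent at 150 to 174 bp (185 of 1064), with a lower maximum at 50 to 74 bp (99). Their larger flank had separate maxima at 200 to 224 bp and at 350 to 374 bp, with 97 sites each. Narrowed sites had maxima at 375 to 399 bp for one flank and at 150 to 174 bp for the smaller of both. The smallest gain that occurred was 257 bp, since the rule asks for a wide peak and a ratio of 2. Sites counted as both flanks have less than 90% of the gain on either side, so the shortest smaller flanks are left out by definition. How far the rises to the one-flank maximum and to the 50 to 74 bp maximum come from these limits was not tested. Eligible pairs that were not widened do not have these limits. Their flanks were most frequent at 0 to 24 bp (13689 of 43054 flanks), with a much lower local maximum at 150 to 174 bp (2455). Whole peaks were stepped in a similar way, with maxima in both lists at 175 to 199, 325 to 349 and 500 to 524 bp. Neighbouring peaks of a list were never closer than 101 bp in either list. The part of the peak caller's settings in these steps was not tested.

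**Figure D3:**
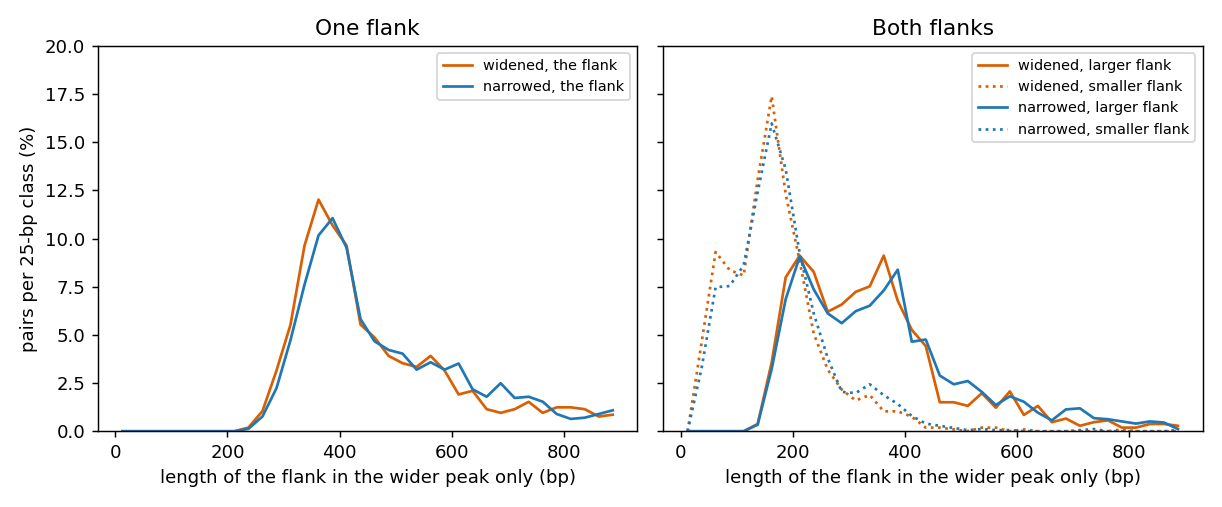
Length of the flank present in the wider peak only (x axis, bp) against the share of sites per 25-bp class (y axis, percent), for sites with the change on one flank (left) and on both flanks (right), widened in orange and narrowed in blue. One-flank widened sites were most frequent at 350 to 374 bp, and the smaller flank of both-flank sites at 150 to 174 bp.

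The summit mostly stayed in place. The summits of the lists were a median of 27 bp apart (quartiles 9 and 90) in widened sites, against 23 bp (6 and 74) in eligible pairs of equal shHMGA1 width and 25 bp (8 and 73) in narrowed sites. They were within 50 bp of each other in 1380 sites (65.3%) and over 200 bp apart in 362 (17.1%). In 294 sites (13.9%, interval 12.5 to 15.5) the shHMGA1 summit lay among the gained bases, outside the control peak, with a median shift of 412.5 bp. In the other sites the median shift was 21 bp. The share was 11.7% in narrowed sites (interval 10.7 to 12.9) and 1.99% in eligible pairs of equal width, whose control peaks were wider. Sites with such a moved summit were weak, with a median summit −log10 p of 4.03 in control and 4.05 in shHMGA1. When only peaks at or above the joined median significance of 5.24 were paired, the share was 3.89% (36 of 926 sites). Among sites with one flank and unequal summits, the shHMGA1 summit was displaced towards the gained flank in 662 and away from it in 363. Narrowed sites had nearly the same split, with the control summit towards the flank in 963 and away from it in 558. A peak that extends on one side leaves more room for its summit on that side. The part of this in the split was not tested.

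The longest shifts were at weak sites with broad shHMGA1 peaks, most of them on chromosome 4. A shift of this length needs a broad peak, and chromosome 4 held 388 of the 2112 widened sites. At 21q22.3 the control peak ran from 47249499 to 47250259 and the shHMGA1 peak from 47248043 to 47249785 on hg19, a gain of 1456 bp and a loss of 474 bp. Its summits were 1498 bp apart, with summit −log10 p of 3.48 and 3.71. The next shifts were 1150 bp at 4q32.3, 1072 bp at 9p21.2, 1029 bp at 4q34.3, 1002 bp at another 4q32.3 site and 998 bp at 4q31.22. In all 6 the shHMGA1 summit was among the gained bases, and in each the control summit −log10 p was below 6.

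The area of a peak is built up from significance over its length, so it tends to grow with width. Whether it counts all of the significance or only the part above a threshold was not given. At 21p11.2 an shHMGA1 peak of 1142 bp had an area of only 210 with a summit −log10 p of 3.22, too little for a plain sum. The area is the authors' value, and it depends on depth, so that areas of different lists are not on a scale known to be common. Its median was 368 in control and 687 in shHMGA1, where the smallest area in either list is 200. The median log2 ratio was 0.76 (quartiles 0.35 and 1.20), or 1.69-fold, and the area was larger in shHMGA1 in 1906 sites (90.2%). At equal shHMGA1 width the median of the eligible pairs was -0.09. Over all 82202 pairs it was -0.13, so the widened sites stood 0.89 above the common shift. The narrowed sites had a log2 ratio of control to shHMGA1 of 1.04, and stood 0.91 above it.

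The gain in area was smaller than the gain in width. Per base, the area fell by 0.64 on the log2 scale in the median (quartiles -1.03 and -0.21), against -0.12 in eligible pairs of equal width. It rose in 338 sites (16.0%). In narrowed sites the area per base of the wider, control peak was also lower than that of its partner, with a median log2 ratio of -0.36. Relative to the medians of all pairs the values were -0.54 in widened and -0.46 in narrowed sites. In both directions the wider peak had the lower area per base in the median site. The selection fixes a part of this, since no listed peak has an area below 200. A narrow partner therefore cannot have a low area per base, while a wide peak can. How much of the difference comes from this limit was not tested.

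**Figure D4:**
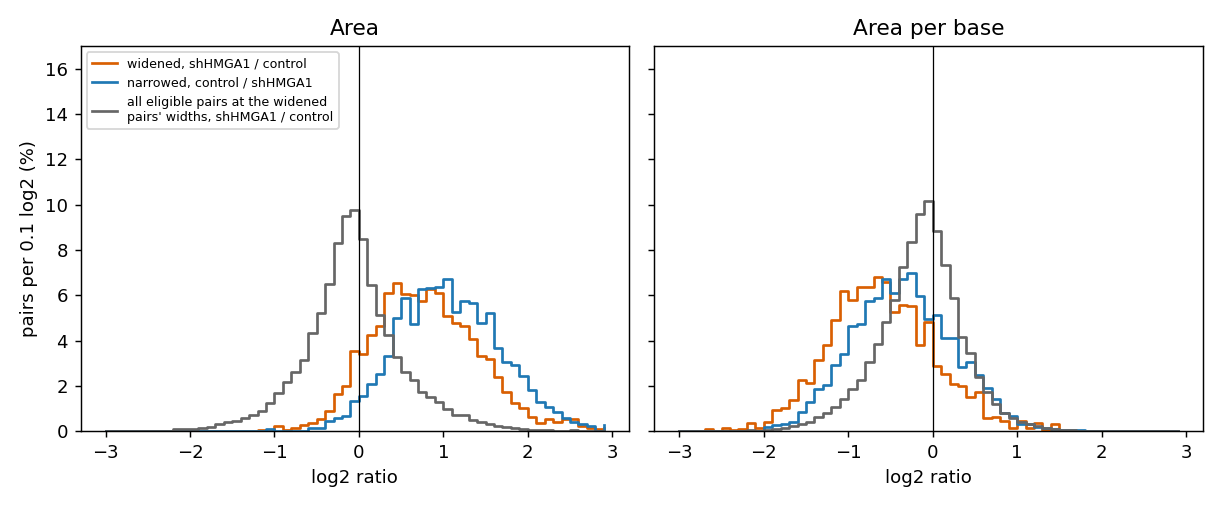
Distribution of the log2 ratio of peak area (left) and of area per base (right), in percent of pairs per 0.1 log2, for widened sites (shHMGA1 over control), narrowed sites (control over shHMGA1) and eligible pairs weighted to the widths of the widened sites (shHMGA1 over control). The median of the widened sites was 0.76 for area and -0.64 for area per base.

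The summit was also more significant in shHMGA1 in most widened sites, but not in all. The median summit −log10 p was 4.70 in control and 5.10 in shHMGA1, and it was higher in shHMGA1 in 1306 sites (61.8%, interval 59.7 to 63.9). In eligible pairs of equal width that share was 38.1%, and in all pairs 36.0%. In narrowed sites the control summit was the higher in 82.4% (interval 81.1 to 83.7). In 602 widened sites (28.5%) the shHMGA1 peak had a larger area under a lower or equal summit. A further 204 sites (9.66%) were wider with both a lower or equal summit and a smaller or equal area, a flatter peak in shHMGA1. Their median summits were 5.35 and 4.33, and 58.8% of them gained on one flank, against 45.1% of the 1304 sites in which summit and area were both higher.

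Widened sites were scarce among strong peaks. When eligible pairs were divided into 10 equal parts by shHMGA1 summit, 9.03% of the weakest part were widened, 5.45% of the fifth and 0.700% of the eighth. In the most significant part there were 2 widened sites of 4716 pairs (0.0424%). The share narrowed, by control summit, was 10.3%, 9.86% and 1.93% in the same parts, with 1 site of 4921 in the last. The strongest widened summit was at 12q13.13, from 52444063 to 52446734 in shHMGA1 and from 52444440 to 52445679 in control. Its summit −log10 p was 15.2 in control and 14.6 in shHMGA1, and its area rose only from 7499 to 8197 while its width went from 1240 to 2672 bp. The next were at 8q12.1, with summits at the same base, and at 19q13.43 and 19q13.33. At the 19q13.33 site 1354 of 1399 gained bases lay on one side. The area per base of these 4 fell by 0.83 to 0.98 on the log2 scale.

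The 4 single sites with the most gained bases all lay in 1p34, on the short arm of chromosome 1. One at 1p34.3 ran from 36807241 to 36811083 in shHMGA1 and from 36808198 to 36808940 in control, so that 743 bp became 3843 bp. It gained 957 bp on one side and 2143 bp on the other, while its summits were only 17 bp apart. At 1p34.1 a control peak from 44399793 to 44400921 (1129 bp) became 4177 bp wide, with 1471 and 1577 bp added on the 2 sides and summits 1 bp apart. There the summit −log10 p fell from 8.92 to 7.42, while the area went from 3425 to 4144.

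A further 1p34.3 site had the largest area ratio and the second largest width ratio. Its control peak ran from 36591765 to 36592078 and its shHMGA1 peak from 36590861 to 36593391, 314 against 2531 bp. The area was 204 in control and 1882 in shHMGA1, 9.24 times as large, and the summit −log10 p was 3.55 and 4.72. The next shHMGA1 peak was only 105 bp away, and the next control peak 973 bp. The last of the 4, from 36028678 to 36031338 in shHMGA1, gained 1106 and 798 bp around a control peak of 757 bp, with summit −log10 p of 8.12 and 8.21.

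Over the bands 1p35.1 to 1p34.1, 44 of 498 eligible pairs were widened (8.84%, interval 6.65 to 11.7) and 22 of 483 narrowed (4.55%, interval 3.03 to 6.80). In 1p34.3 alone 16 of 153 eligible pairs were widened and 2 of 150 narrowed. Of 73 sites that gained 1000 bp or more, 9 lay in these bands and 36 in segments of 4q and 9p where peaks of both lists are dense. By the mirror rule, 149 narrowed sites changed by 1000 bp or more. The segments held 8850 of the 47152 eligible pairs, and the 1p bands 498. The eligible pairs of these bands as a whole were slightly wider in shHMGA1: their log2 width ratio had a median of 0.13, against 0.01 over chromosomes 1 to 22. The bands were already known to hold more shHMGA1 peaks than control peaks, so they are no independent support for the pattern.

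The largest width ratio was at 4q34.1, where a control peak of 175 bp from 173484421 to 173484595 became 1459 bp wide, from 173483104 to 173484562. All 1317 gained bases lay towards lower coordinates, the summit moved by 916 bp, and the area was 222 in control and 1283 in shHMGA1. At 6q24.2 a control peak of 151 bp became 1065 bp wide around nearly the same summit, 12 bp away. The summit −log10 p there rose from 4.16 to 7.54 and the area 8.31 times. Sites at 1q21.1, 6q13 and 21p11.2 also had ratios over 6, but with lower summits in shHMGA1 and area ratios of 2.89, 1.55 and 1.05. Both kinds, a taller peak and a lower spread-out one, were thus present among the most widened sites.

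Outside these, the largest area ratios were at 12p11.22 (7.67), 2q33.1 (7.45), 7q22.1 (6.97) and 12q21.1 (6.87). At these 4 sites the area per base rose too, by 1.31 to 1.67 on the log2 scale, in contrast to the typical widened site. At 12q21.1 the summit −log10 p was 4.43 in control and 8.67 in shHMGA1, and the gain was split into 252 and 223 bp. At the other end, the area was smaller in the wider peak at 17q25.3 (890 in control, 412 in shHMGA1), 2p13.2 (706 and 357), 6q22.32 (450 and 227) and 15q13.1 (516 and 266). At 17q25.3, 405 of 410 gained bases lay on one side and the summit −log10 p fell from 6.17 to 3.96.

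Widened sites were found on all of chromosomes 1 to 22, at shares of 2.05% to 6.16% of eligible pairs. The 5 highest were those of chromosomes 13 (97 of 1574, 6.16%, interval 5.08 to 7.46), 21 (5.81%), 2 (5.47%), 1 (5.27%) and 4 (4.98%). The 5 lowest were those of chromosomes 16 (16 of 782, 2.05%, interval 1.26 to 3.30), 14 (2.19%), 20 (2.64%), 17 (2.89%) and 15 (3.19%). Applying the share of each width class to the widths of each chromosome would give a narrower range, 3.99% to 4.80%. Narrowed sites outnumbered widened ones on 20 of the 22 chromosomes. The exceptions were chromosome 19, with 40 widened and 21 narrowed sites, and chromosome 22, with 16 and 13. On chromosome 22 the share widened was 4.29% (interval 2.66 to 6.85) and the share narrowed 3.64% (2.14 to 6.13). These intervals overlapped for most of their length. Chromosome 19 had the lowest share narrowed of all, 1.96% (interval 1.29 to 2.98), and a share widened of 3.75% (2.76 to 5.06). Of its 40 widened sites, 0 had the shHMGA1 summit outside the control peak (interval up to 8.76%), and 26 gained on one flank (65.0%, interval 49.5 to 77.9). All eligible pairs of chromosome 19 were also low in summits outside, at 0.375% against 1.76% over chromosomes 1 to 22. The median log2 width ratio of eligible pairs was 0.045 on chromosome 19 and 0.066 on 22, against 0.010.

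**Figure D5:**
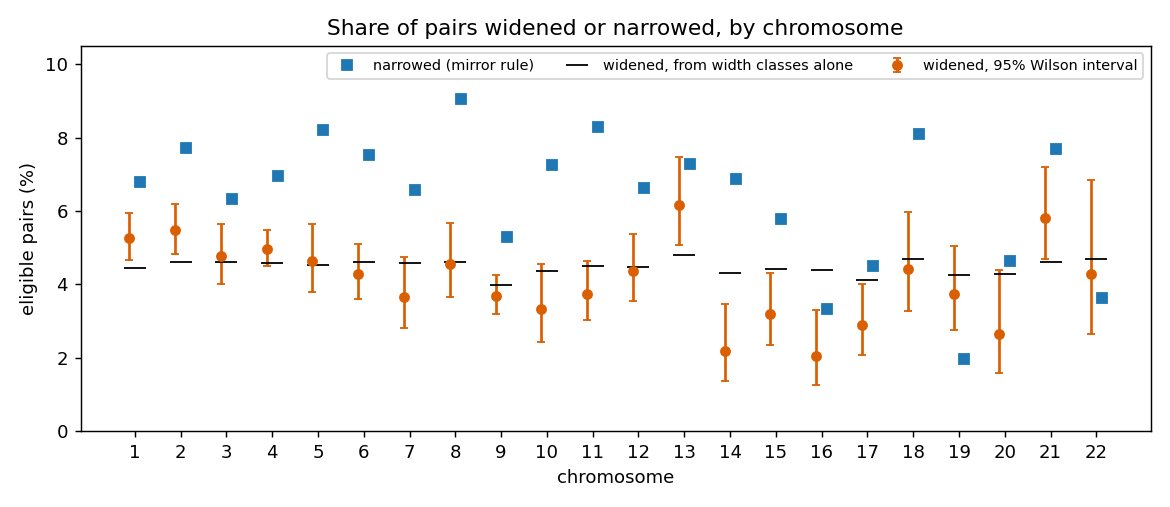
Share of eligible pairs (y axis, percent) that were widened (orange, with 95% Wilson interval) or narrowed (blue squares) on each chromosome (x axis); black bars give the share widened that the peak widths of the chromosome alone would give. Narrowed sites were more frequent on 20 of 22 chromosomes, and chromosome 19 had 3.75% widened and 1.96% narrowed.

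Among 484 bands with at least 30 eligible pairs, the median share widened was 3.82%, the 95th percentile 9.45%, and 59 bands had no widened site. Widened sites outnumbered narrowed ones in 125 bands and were fewer in 299. The highest shares were at 5p14.1 (8 of 46, 17.4%), 3q26.31 (14 of 104, 13.5%), 3q13.31 (4 of 31), 3q26.1 (7 of 55) and, with equal shares, 13q13.3 and 3p21.2 (6 of 50 each). Intervals of these are wide, such as 8.19 to 21.3% at 3q26.31, where 4 sites were narrowed and 12 of the 14 widened sites had the higher summit in shHMGA1. The eligible pairs of 3q26.31 as a whole were shifted too: 59.6% had the higher summit in shHMGA1, against 37.2% over chromosomes 1 to 22, and the median log2 width ratio was 0.12 against 0.01. The largest bands with none were 18q11.2, 2p13.3, 6q26, 9p13.3 and 9q31.1. At 6q26, 0 of 56 pairs were widened (interval up to 6.42%) and 19 of 77 narrowed. These bands were picked for their shares.

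The dense segments, long stretches of 4q and 9p crowded with peaks in both lists, held 408 of the widened sites. Their share widened was 4.61%, close to the 4.45% of the other regions, but the segments differed, at 4.96% on 4q (interval 4.43 to 5.55) and 3.96% on 9p (3.33 to 4.70). Their summits were farther apart. In the segments 118 of 408 sites (28.9%, interval 24.7 to 33.5) had the shHMGA1 summit among the gained bases, against 10.3% (interval 8.97 to 11.9) elsewhere. The median summit distance was 89.5 and 24 bp. All eligible pairs differed in the same direction, with medians of 55 and 18 bp, as did narrowed sites, of which 26.4% and 8.88% had the wider peak's summit outside the narrower peak. Widened peaks of the segments were wider (median 905.5 against 706 bp in shHMGA1) and weaker (median summit −log10 p 4.34 against 5.43). They also lay closer to the next shHMGA1 peak, at a median of 534.5 against 4432.5 bp. All eligible pairs differed likewise, with 603 against 4322 bp, since crowding defines the segments.

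Widened sites were spread over all chromosomes, and some 1-Mb windows held several. The median distance to the next widened site was 233354 bp, and 711 sites (33.7%) had another within 100 kb. The next other eligible pair lay at a median of 8081 bp. Eligible pairs are far more numerous, 47152 against 2112 widened sites, so this contrast follows from the numbers. The widened sites occupied 1129 of 2640 1-Mb windows with an eligible pair, and 705 of those windows held 1 site. A further 69 windows held 5 or more, with 533 sites between them. The fullest windows were on 4q, with 16 sites each between 163000001 and 164000000 and between 168000001 and 169000000. These windows are rich in eligible pairs, with 191 and 218, of which 8.38% and 7.34% were widened. How far crowding follows the number of eligible pairs per window was not tested. A narrowed site, of which there are more, lay within 10 kb of 154 widened sites (7.29%), and another widened site within 10 kb of 130 (6.16%). The gap to the next shHMGA1 peak had a median of 2655 bp, near the 2895 bp of eligible pairs at equal width.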

How the data were processed

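ATAC-seq peaks were called with Genrich on hg19, per the submitters' processing notes. The settings of Genrich, the aligner and the merging of samples into a list were not given in the sources used here. The deposited lists give positions, a score, an area and an unadjusted −log10 p at the summit. In Genrich's format the area is built up from significance over the peak. Whether only significance above a threshold counts was not given, so the area was treated as a score and used as deposited. The q-value column is -1 throughout the authors' lists. The name of a list tells its group.

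Peaks were paired in Python 3.11.15 (numpy 2.4.6, pandas 2.3.3, scipy 1.17.1, matplotlib 3.10.9). The 83581 one-to-one pairs were the same as those from bedtools 2.31.1. All 200 widenings planted in a simulated list made from the 127153 control peaks were recovered with their flank. They were planted only at isolated control peaks, at a larger width ratio than most widened sites have. Their recovery checks the code and not how well sites are found in real lists. Bands are those of circlize 0.4.16. Shares have 95% Wilson intervals. The members, lists and comparisons were chosen with earlier results of these data known. Named sites are those with the largest width ratio, gain, area ratio and summit shift, the smallest area ratio, the most significant summit, and those next to a threshold; chromosomes and bands are the 5 highest and 5 lowest. Genes and sequences at the sites were not analysed here. Alternatives are given in the closing section.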

Additional observations from a re-analysis of the deposited data

How the results depend on the processing

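Widened sites stayed fewer than narrowed ones under each of the alternatives run. Settings without 1p35.1 to 1p34.1, and with width ratios centred on all pairs, were chosen after seeing the data. A width ratio of at least 1.5 gave 5398 sites (11.4% of eligible pairs), 54.7% with the gain on one flank, 9.45% with the summit outside, a median log2 area ratio of 0.52, and widened sites as 40.2% of all that changed. A ratio of at least 3 gave 509 sites, 1.08%, 16.3% with the summit outside, 23 bp between summits, 1.04 and 37.0%. Without a minimum width the values were 3.68%, 53.9% on one flank, 10.7% with the summit outside, 22 bp between summits, 0.64 and 40.4%. From 1000 bp they were 430 sites, 2.53%, 43.0% on one flank, 23.5% outside, 52.5 bp, 0.95 and 34.1%. Peaks at or above the joined median gave 926 sites, 2.74%, 53.9% on one flank, 3.89% outside, 14 bp and 0.61. Equal numbers gave 848 sites, 2.58%, 55.7%, 3.66%, 14 bp, 0.55 and 36.7%. With no other peak within 1000 bp there were 1312 sites, 9.68% outside, 23 bp and 0.71. An overlap of 50% of the narrower peak gave 4.73% widened and 15.8% outside. Merging gave 37.5% of all that changed. Without the dense segments 10.3% were outside, at 24 bp. Centred ratios gave 4.72% and 41.4%. One flank held 64.6% of sites at 75% of the gain and 24.9% at 100%. Area per base reversed the median log2 ratio to -0.64, as the area grew less than the width, with median log2 ratios of 0.76 and 1.31. The causes of the changes under these settings were not tested. No paired analysis was possible because the lists hold no value per replicate, and no replicate could be left out. Unknown depth limits every width of a weak peak.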

Other observations

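On chromosome X, which the rule left out, 9 of 532 eligible pairs were widened (1.69%, 95% Wilson interval 0.893 to 3.18) and 19 of 582 narrowed (3.26%). Both shares were below those of chromosomes 1 to 22.

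By Giemsa staining, the darkest bands, which are poor in genes, had 492 of 9084 eligible pairs widened (5.42%, interval 4.97 to 5.90). Unstained bands had 918 of 22340 (4.11%, interval 3.86 to 4.38). Lightly and moderately stained bands were below both, at 3.87% and 3.77%, and the next to darkest at 5.32%, so the share did not follow staining step by step. The share narrowed had another order, with 7.38% in the darkest bands, 7.94% in the moderately stained and 1494 of 23354 in the unstained bands. The peak widths of these bands alone would give 4.75% and 4.38% widened. Centromeric bands had 12 of 358 eligible pairs widened (3.35%, interval 1.93 to 5.77) and variable bands 10 of 187 (5.35%, interval 2.93 to 9.56). Both intervals include the 4.48% of chromosomes 1 to 22.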
